A study of Homo sapiens with 4 samples.

Results

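The ceramide and sphingolipid enzymes described here are 10 genes of the 34675 in the authors' deposited table. They are the ceramide synthases CERS2, CERS4, CERS5 and CERS6, the serine palmitoyltransferase subunit SPTLC1, the glucosylceramide synthase UGCG, the acid sphingomyelinase SMPD1, the acid ceramidase ASAH1, the sphingosine kinase SPHK1 and the sphingosine 1-phosphate lyase SGPL1. Members were found by gene symbol, and each matched 1 row. They had been picked with the folds and p-values of this same table known, so those values are given as a description and are not independent support for a change. RNA was sequenced from MDA-MB-231 cells, an established triple-negative breast cancer line, as 2 stable derivatives grown on plastic. The vector line carried the pcDNA plasmid without an insert (pcDNA-Vector), and the LKB1 line carried that plasmid with an insert for wildtype LKB1 bearing a FLAG tag (pcDNA-FLAG-LKB1 wildtype). LKB1 is the serine/threonine kinase encoded by STK11. Each line gave 2 libraries. The labels do not say whether a line was 1 clone or a pool, or whether its 2 libraries were separate cultures, so the deposited p-values measure the spread between these libraries only, which may be technical.

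Ceramide stands at the centre of sphingolipid metabolism. It is built in the endoplasmic reticulum from serine and palmitoyl-CoA, with ceramide synthases attaching a fatty acyl chain whose length depends on the synthase. From ceramide the cell makes sphingomyelin and glycosphingolipids for its membranes, and lysosomal enzymes return these to ceramide. Ceramidases release sphingosine from ceramide, sphingosine kinases turn it into the signalling lipid sphingosine 1-phosphate, and the lyase destroys that lipid for good.

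The table holds 1 comparison and no value per library. Group totals of reads were recovered from its fold column, because a fold with a fixed small prior count takes only certain values; 98.4% of the 28242 genes with reads were resolved into whole totals, and all 10 members were. A total is the sum over the 2 libraries of a line, so no spread between libraries can be shown for it. The LKB1 line was sequenced to 1.04 times the depth of the vector line. The direction of the fold is not named in the header. It was taken to be LKB1 over vector because of STK11, which had 1321 reads in the vector line against 2112 in the LKB1 line (log2 fold 0.62 and adjusted p = 0.00105, both as deposited by the authors). Every direction rests on that reading. Titles read fmRNA for the LKB1 libraries but mRNA for the vector libraries, without explanation, and a preparation that differed with the line cannot be told apart from the plasmid. A check of the groups against the named cell line, made to find mixed-up samples, failed for 1 of the 2 groups. Of the markers of the line, VIM, CD44, EGFR, AXL, KRT8 and FN1 had totals that were not resolved in the search up to 5000 reads per line, and KRT18 had 4333 and 4938 reads. Of these 7 markers, AXL was called higher (log2 fold 0.424) and FN1 lower (-0.675), and 5 were not called. Of the 4 genes listed as absent from such a line, ESR1 had 8 and 12 reads and PGR 4 and 0, but CDH1 had 431 and 278 and ERBB3 101 and 134, against that list. Mitochondrially encoded genes had a median log2 fold of 0.39, with 4 of 12 called higher. Of 10 listed endothelial markers 8 were found. Their summed reads went down from 2148 in the vector line to 333 in the LKB1 line, with ESAM alone at 1197 and 129. None of the 8 was at 0, and 7 of the 8 passed the test. Fibroblast markers had 458 and 420 summed reads over 7 genes, with 2 called lower. Leukocyte markers had 774 and 354 over 5 genes, with LCP1 called lower (693 and 200 reads) and CD14 higher (67 and 144). The part of all these marker genes in the results below was not tested.

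Of the 10 enzymes, 2 were called in the authors' deposited table at an adjusted p under 0.05, CERS4 and UGCG, and both were higher in the LKB1 line. None was called lower. In the table as a whole, 5.79% of genes were called, and among genes with at least 40 reads, a minimum that all 10 members reached, 12.6% were. The median log2 fold of the members was 0.11, beside -0.02 for all 14387 genes with at least 40 reads, and 7 of the 10 lay above 0. Since the members were picked from this contrast, nothing is read from that count.

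**Figure D1:**
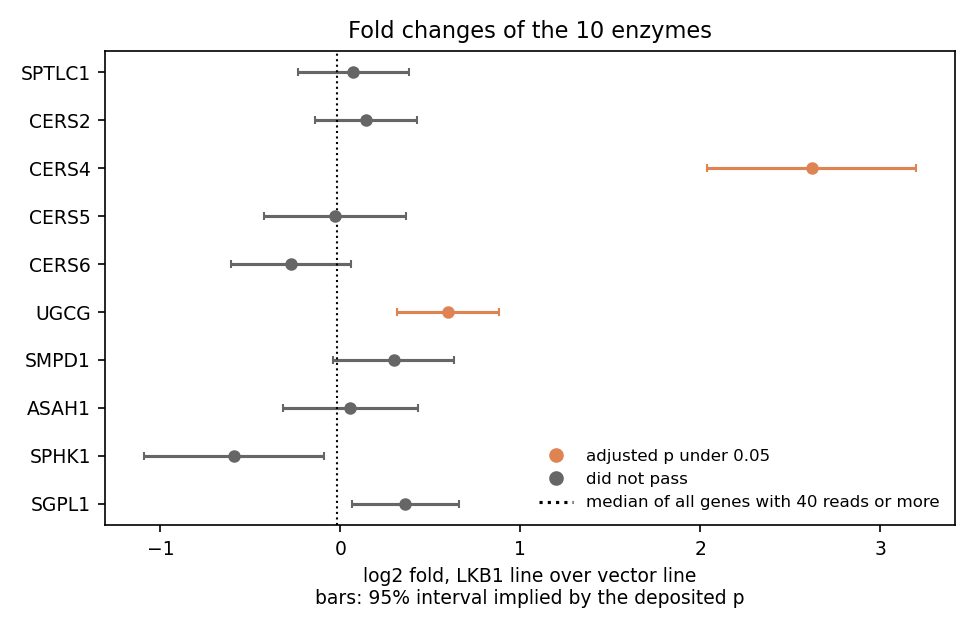
The log2 fold of the LKB1 line over the vector line for each of the 10 enzymes, with bars for the 95% interval implied by the deposited p-value and a dotted line at the median of all genes with at least 40 reads. CERS4 stands apart at 2.62 and UGCG follows at 0.60, while the other 8 lie between -0.59 and 0.36.

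Regulatory sequence is shown for UGCG, the called enzyme with an entry in the promoter table, and for SPHK1 and SGPL1, which make and destroy sphingosine 1-phosphate and lay at opposite ends of the folds that were not called. The sequences are the 250 bases upstream of the start in the RefSeq promoter table (GRCh38.p14), all on the plus strand: chr9:111896564-111896813 for UGCG, chr17:76382954-76383203 for SPHK1 and chr10:70815698-70815947 for SGPL1. SPHK1 has 3 starts in that table and the first is shown. Capitals mark the GC box GGGCGG on either strand.
UGCG: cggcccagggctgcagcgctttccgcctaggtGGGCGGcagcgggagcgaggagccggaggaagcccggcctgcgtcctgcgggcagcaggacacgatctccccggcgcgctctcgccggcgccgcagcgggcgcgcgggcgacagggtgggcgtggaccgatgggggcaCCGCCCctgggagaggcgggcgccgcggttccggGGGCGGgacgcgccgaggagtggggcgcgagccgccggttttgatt
SPHK1: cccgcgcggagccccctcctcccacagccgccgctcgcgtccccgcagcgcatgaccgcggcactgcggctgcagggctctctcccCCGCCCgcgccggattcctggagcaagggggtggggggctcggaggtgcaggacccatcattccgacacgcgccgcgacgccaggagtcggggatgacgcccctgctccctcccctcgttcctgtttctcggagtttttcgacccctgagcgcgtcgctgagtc
SGPL1: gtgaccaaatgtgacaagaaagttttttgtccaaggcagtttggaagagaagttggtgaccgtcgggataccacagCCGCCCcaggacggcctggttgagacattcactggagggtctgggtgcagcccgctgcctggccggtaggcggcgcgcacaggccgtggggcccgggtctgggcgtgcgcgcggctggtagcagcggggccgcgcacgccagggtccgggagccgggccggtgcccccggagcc

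Of the 10 enzymes 7 had an entry in the promoter table, and CERS2, CERS4 and ASAH1 had none. All 7 upstream windows held at least 1 GC box, from 1 in SPHK1 and in SGPL1 to 5 in CERS5 and 6 in SMPD1, with 3 in UGCG. A GC box was present in 42.6% of 35116 windows of the same length. The share of G and C ran from 56.4% in SPTLC1 to 78.4% in UGCG, beside a median of 58.0% over all windows, which SPTLC1 alone of the 7 did not reach. The core CREB motif TGACG, on either strand, occurred in CERS6 and SPHK1 and in 21.2% of all windows. The full cAMP response element TGACGTCA, the E-box CACGTG and the TATA box TATAAA were in none of the 7, and they were in 1.65%, 6.34% and 10.7% of all windows; the full element contains the core motif. CCAAT was in CERS6 alone of the 7 and in 32.0% of all. These are matches of letters and describe the windows only.

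SPTLC1 (chromosome 9, 94793427 to 94877690, minus strand, hg19, as all gene positions here) encodes a subunit of serine palmitoyltransferase, the enzyme of the first and rate-limiting step of sphingolipid synthesis. It had 902 reads in the vector line against 986 in the LKB1 line. Scaled to depth these are nearly equal, and the fold deposited by the authors was 1.05 (log2 0.07, adjusted p = 1). The 95% interval implied by the deposited p ran from -0.24 to 0.38 on the log2 scale, so a small change in either direction remains possible.

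CERS4 (ENSG00000090661.6, chromosome 19, 8271620 to 8327305, plus strand) encodes a ceramide synthase that favours stearoyl and somewhat longer acyl chains. It had 41 reads in the vector line against 263 in the LKB1 line. The LKB1 total was thus far above the vector total, and the counting interval of the depth-scaled ratio of 6.17 ran from 4.43 to 8.80. The authors' deposited table gave a fold of 6.14 (log2 2.62, implied SE 0.30, adjusted p = 2.93e-16). By fold it stood at rank 15 of 12485 protein-coding genes with at least 40 reads. Among the 1954 protein-coding genes whose totals were within 1.5 times its own, 1.33% had a larger change in either direction.

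The other ceramide synthases among the members did not pass. CERS2 (chromosome 1, 150933059 to 150947479, minus strand), which makes ceramides with very long acyl chains, had 2376 reads in the vector line against 2726 in the LKB1 line. Its log2 fold in the authors' deposited table was 0.14, with an implied interval of -0.14 to 0.43. CERS6 (chromosome 2, 169312372 to 169631644, plus strand), which favours palmitoyl chains, had 836 and 719 reads. It was the synthase with the lowest log2 fold, -0.27 with an adjusted p of 0.627 in the authors' deposited table, and its interval of -0.61 to 0.06 reached just past 0. CERS5 (chromosome 12, 50523575 to 50561288, minus strand), also a palmitoyl-preferring synthase, had 264 and 269 reads. Its log2 fold of -0.03 had an interval of -0.42 to 0.37.

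Levels between genes were compared per kilobase of exon (union of exons in GENCODE 29), with the LKB1 totals divided by the depth ratio. The annotation used for counting was not given, so the length of a gene may differ from the one its reads were counted over. Levels and shares of different genes are therefore approximate. CERS2 led the synthases in both lines, at 511.6 reads per kb in the vector line against 564.6 in the LKB1 line. CERS6 came next at 115.5 and 95.5, and CERS5 stood at 39.1 and 38.3. CERS4 was the lowest of the 4 in the vector line, at 10.1, and passed CERS5 in the LKB1 line, at 62.3. The synthases CERS1 and CERS3, which are not members and are named here to complete the family after their values were seen, stood at 9.33 and 4.36 for CERS1 and 0.19 in each line for CERS3. In the vector line the counting intervals of CERS1 and CERS4 overlapped, and reads of CERS1 cannot be told apart from those of GDF1, which overlaps it. Of the summed level of all 6 synthases, CERS4 made up 1.47% in the vector line but 8.14% in the LKB1 line. CERS2 held 74.6% and 73.8%, and CERS6 16.8% and 12.5%. The sum itself was 685.8 and 765.3 reads per kb, a ratio of 1.12. These shares weigh transcripts and not enzyme activity, and they carry no spread between libraries. In bulk RNA, fewer cells that hold a transcript and less of it per cell cannot be told apart.

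**Figure D2:**
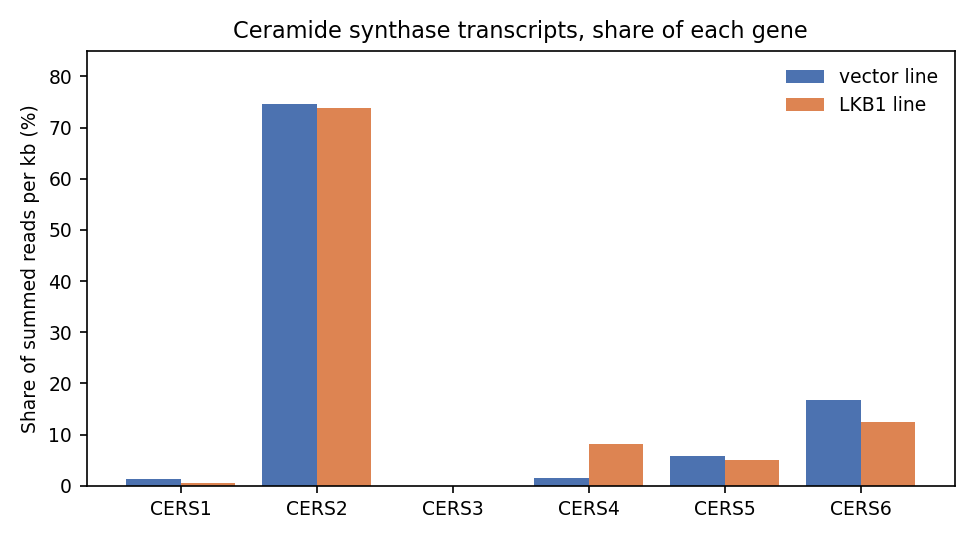
The share of each ceramide synthase gene in the summed reads per kb of the family, in percent, for the vector line and the LKB1 line. CERS2 holds about the same majority in both lines at 74.6% and 73.8%, while the bar of CERS4 is taller in the LKB1 line at 8.14% beside 1.47%.

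UGCG (ENSG00000148154.5, chromosome 9, 114659046 to 114697649, plus strand) encodes the synthase that puts glucose on ceramide and so opens the path to most glycosphingolipids; its GC-rich upstream sequence is printed above. It had 2787 reads in the vector line against 4388 in the LKB1 line, the largest totals of the 10. The counting interval of the depth-scaled ratio was 1.44 to 1.59. The authors' deposited table gave a fold of 1.51 (log2 0.60, implied SE 0.15, adjusted p = 0.00137). Of 668 protein-coding genes with like totals, 5.09% changed more. The call did not hold with an assumed variation of 0.2 between libraries in place of the authors' estimate (adjusted p = 0.487), nor did that of STK11 (adjusted p = 0.451). The call of CERS4 held under the same assumption (adjusted p = 6.26e-10).

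The lysosomal enzymes that make and split ceramide did not pass. SMPD1 (chromosome 11, 6411655 to 6416228, plus strand), which releases ceramide from sphingomyelin, had 560 reads in the vector line against 715 in the LKB1 line. Its log2 fold in the authors' deposited table was 0.30 (adjusted p = 0.554), with an implied interval of -0.04 to 0.63. ASAH1 (chromosome 8, 17913934 to 17942494, minus strand), which splits ceramide into sphingosine and a fatty acid, had 618 and 668 reads. Its log2 fold was 0.06 with an interval of -0.32 to 0.43.

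The enzymes of sphingosine 1-phosphate had folds on opposite sides of 1, neither of which passed. SPHK1 (chromosome 17, 74372665 to 74383941, plus strand), which makes the lipid, had 161 reads in the vector line against 111 in the LKB1 line. It was the member with the lowest fold, 0.66 in the authors' deposited table (log2 -0.59, implied SE 0.26, unadjusted p = 0.0203, adjusted p = 0.218 with the adjustment across all genes). SGPL1 (chromosome 10, 72575717 to 72640930, plus strand), the lyase that cleaves it, had 1484 and 1983 reads. Its fold was 1.29 (log2 0.36, implied SE 0.15, unadjusted p = 0.0161, adjusted p = 0.184 in the same table across all genes). SPHK1 reads came to 0.108 of SGPL1 reads in the vector line against 0.056 in the LKB1 line, a difference of -0.95 between the log2 folds that was not tested. That ratio covers SPHK1 alone. SPHK2, the other sphingosine kinase gene, is not a member and is named after its values were seen. It had 316 reads in the vector line against 311 in the LKB1 line (log2 -0.08 in the authors' deposited table). Per length in the vector line, SPHK2 was at 52.6 and SPHK1 at 36.5 reads per kb.

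**Figure D3:**
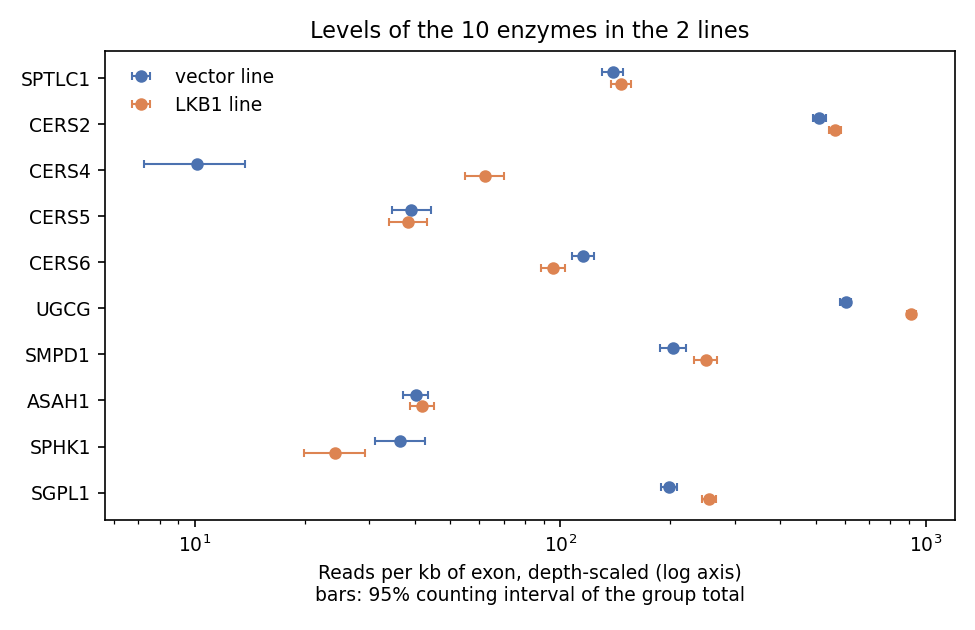
Reads per kb of exon on a log axis for each enzyme in the vector line and the LKB1 line, scaled to depth, with bars for the 95% counting interval of the group total. UGCG and CERS2 are the highest in both lines; the pair of points of CERS4 is the widest apart, at 10.1 and 62.3.

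In order of level per length in the vector line, UGCG came first at 603.9 reads per kb and CERS2 second at 511.6. SMPD1 at 203.6 and SGPL1 at 198.2 followed, and their counting intervals overlapped. SPTLC1 stood at 139.1 and CERS6 at 115.5. ASAH1 at 40.2, CERS5 at 39.1 and SPHK1 at 36.5 had intervals that overlapped each other, and CERS4 came last. In the LKB1 line UGCG was at 914.5, SGPL1 at 254.8 and SMPD1 at 250.1, and SPHK1 took the last place at 24.2. The exons of ASAH1 in that annotation cover 15378 bases, the most of any member, which lowers its value per length.

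The neighbourhood of each member was described by the 24 nearest protein-coding genes with at least 40 reads. Around CERS4 the median log2 fold of these genes was -0.32, the highest of them was at 0.58, 7 were called lower and none higher. CERS4 thus lay 2.94 above the median of its neighbours and above all of them. The lowest of them, MYO1F, was at -4.07, with 182 reads in the vector line against 11 in the LKB1 line. That is farther from 0 than CERS4. Around UGCG the median was 0.12, with 1 gene called lower, and UGCG lay 0.48 above it. Among the other members, the median of neighbours ran from -0.27 around SMPD1, where 5 were called lower, to 0.19 around SGPL1, where 4 were called higher and 1 lower and 21 of 24 lay above 0. SGPL1 lay 0.17 above its neighbours' median.

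**Figure D4:**
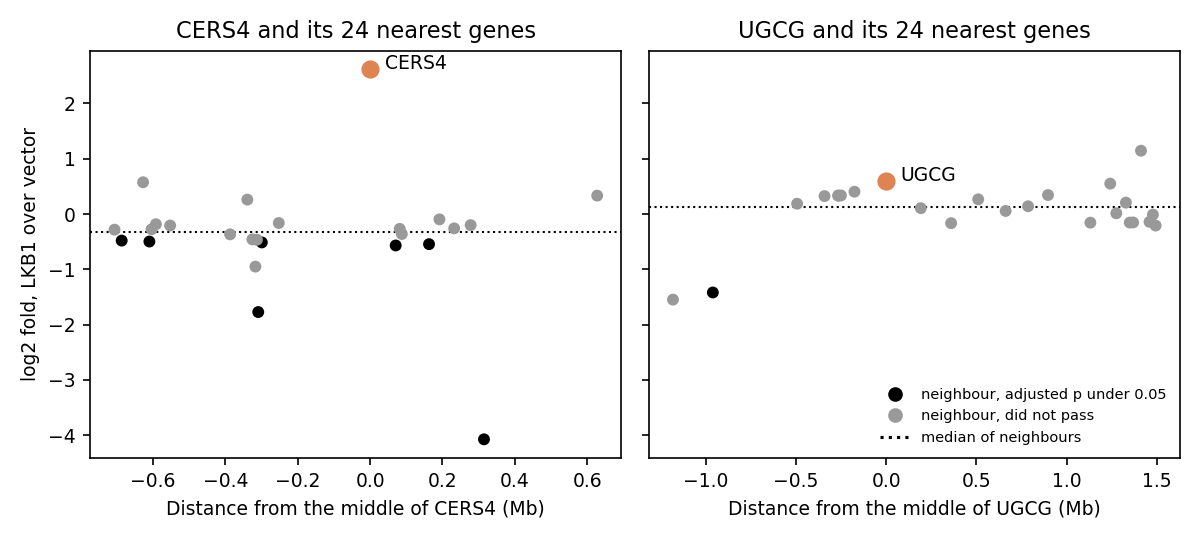
The log2 fold of CERS4 (left) and UGCG (right) and of their 24 nearest protein-coding genes with at least 40 reads, by distance in megabases from the middle of the gene; black points passed at an adjusted p under 0.05 and the dotted line is the median of the neighbours. CERS4 lies above all its neighbours, whose median is -0.32, and UGCG lies above most of its own, whose median is 0.12.

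Rows of the table that overlap a member can share reads with it, as the sources used here do not say whether strand was used in counting. No row overlapped CERS4, UGCG, SPTLC1 or SMPD1. On the opposite strand, CERS2 overlapped SETDB1 (554 and 510 reads in the vector and LKB1 lines), CERS5 overlapped COX14 (162 and 193) and SPHK1 overlapped PRPSAP1 (593 and 621). None of these 3 passed, with log2 folds of -0.18, 0.20 and 0.01 in the authors' deposited table. PRPSAP1 had more reads than SPHK1 in each line; how many reads the pair shares was not tested. Within SGPL1, the sense intronic RP11-432J9.4 had 3 and 19 reads.

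A list of 86 other sphingolipid genes, drawn up by role, put the members in the context of their pathway. Of these 85 were in the table, 3 had no reads and 67 had at least 40. Of the 85, 6 were called in the authors' deposited table, all lower in the LKB1 line, beside 3.24% of all genes called lower and 2.55% called higher. Of the 67 with at least 40 reads 5 were called lower and none higher, beside 6.86% and 5.77% of all genes with as many reads. The median log2 fold of the 67 was 0.12, beside -0.02 for all genes with as many reads, and 45 of them lay above 0.

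Among the listed genes with at least 40 reads, the largest change was in a receptor of sphingosine 1-phosphate. S1PR3, a G protein-coupled receptor of the lipid, had 176 reads in the vector line against 16 in the LKB1 line. It fell 11.3-fold in the authors' deposited table (log2 -3.49, implied SE 0.37, adjusted p = 5.99e-19), with a counting interval of 0.0489 to 0.146 for the depth-scaled ratio. C9orf47, which overlaps S1PR3 on the same strand, had 12 and 0 reads. S1PR5, another receptor of the family, fell from 45 to 13 reads (log2 -1.83, adjusted p = 0.0149 in the authors' deposited table). ABCC1, an exporter and the gene of this role with most reads, had 2092 and 2528 (log2 0.22, adjusted p = 0.779), and 2 of the 7 genes of this role with at least 40 reads were called. The endothelial markers given above were lower in the same line as S1PR3 and S1PR5. The part of these markers in this was not tested.

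Among the 11 genes of ceramide and sphingosine breakdown with at least 40 reads, 1 was called. SGPP2, a phosphatase that returns sphingosine 1-phosphate to sphingosine, fell from 35 to 10 reads (log2 -1.84, adjusted p = 0.038 in the authors' deposited table). Its paralog SGPP1, named after its values were seen, had 352 and 445 reads (log2 0.28, adjusted p = 0.648 in the authors' deposited table). Per length, SGPP1 was at 106.3 and SGPP2 at 10.5 reads per kb in the vector line. PPAP2C, a lipid phosphate phosphatase and the gene of this role with most resolved reads, had 835 and 1063 (log2 0.29, adjusted p = 0.585).

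The synthesis and transfer of glycosphingolipids held 2 called genes of 13, 1 of them with fewer than 40 reads. B4GALT6, which makes lactosylceramide from the product of UGCG, fell from 240 to 142 reads (log2 -0.81, implied SE 0.23, adjusted p = 0.0116 in the authors' deposited table). Its paralog B4GALT5, with the same reaction and the most reads of this role, had 2333 and 2738 reads (log2 0.17, adjusted p = 0.956). Per length, B4GALT5 was at 494.1 and B4GALT6 at 45.2 reads per kb in the vector line. B4GALNT1, the synthase of the gangliosides GM2 and GD2, fell from 32 to 5 reads (log2 -2.67, adjusted p = 0.00131). ST3GAL5, the synthase of the ganglioside GM3, is named after its values were seen; it had 94 and 171 reads and narrowly missed the threshold (log2 0.81, adjusted p = 0.0531 in the authors' deposited table).

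None of the 13 de novo synthesis genes, the 10 sphingomyelin genes or the 14 genes listed under lysosomal breakdown was called. That last list also holds GBA2, GBA3 and NEU3, which are not lysosomal enzymes. SPTLC2, the catalytic partner of SPTLC1 and the gene of its role with most reads, had 1424 reads in the vector line against 1133 in the LKB1 line (log2 -0.39, adjusted p = 0.141 in the authors' deposited table). SGMS2, a sphingomyelin synthase, had 989 and 1229 (log2 0.26, adjusted p = 0.663). PSAP, whose product is cut into the saposins that help lysosomal hydrolases reach their lipids, had no resolved total, and its log2 fold was 0.12 (adjusted p = 1). The median log2 folds of these roles were -0.04, 0.10 and 0.06 over 9, 8 and 13 genes with at least 40 reads.

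Of the 13 genes that supply fatty acyl chains 1 was called. TECR, the reductase of the last step of chain elongation, fell from 1843 to 1355 reads (log2 -0.50, adjusted p = 0.0173 in the authors' deposited table). It lies on chromosome 19 where 16 of its 24 nearest genes were called lower, at a median log2 fold of -0.57. The microRNA gene MIR639, which overlaps TECR on the same strand, had 38 and 11 reads. ELOVL5, a fatty acid elongase and the gene of this role with most reads, had 3063 and 3913 (log2 0.30, adjusted p = 0.348).

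**Figure D5:**
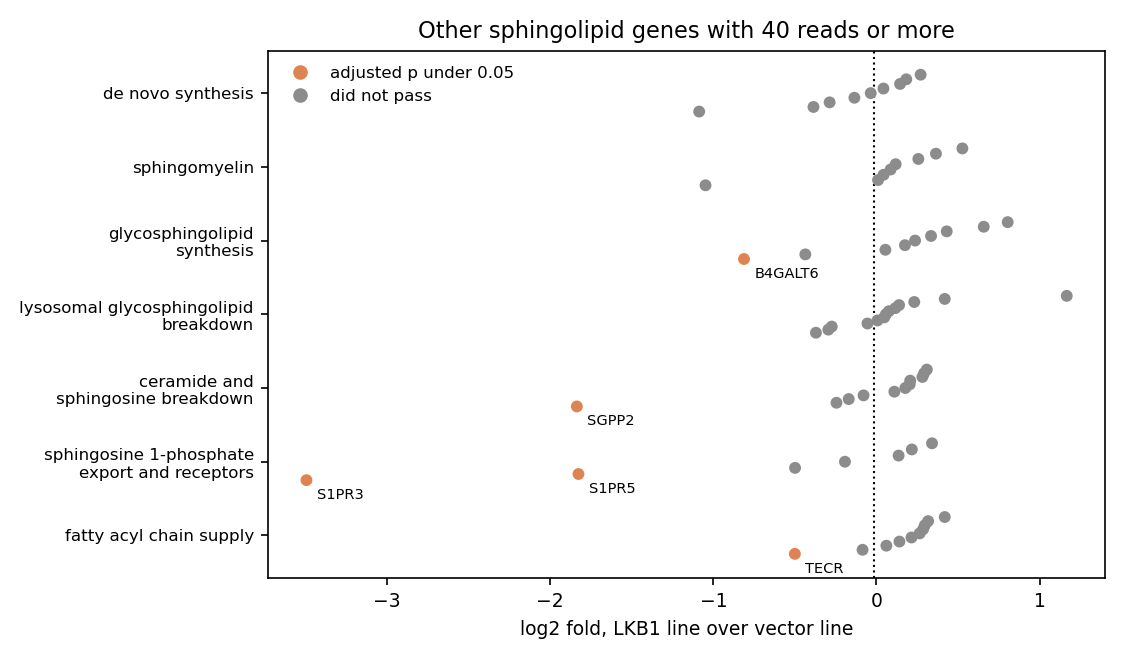
The log2 fold of the LKB1 line over the vector line for the 67 other sphingolipid genes with at least 40 reads, in rows by role; orange points passed at an adjusted p under 0.05 and the dotted line is the median of all genes with as many reads. The 5 called genes all lie to the left, with S1PR3 farthest at -3.49, while most points lie within 0.5 of 0.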

How the data were processed

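RNA sequencing libraries of 2 vector and 2 LKB1 samples were compared by the authors in 1 table of 34675 genes. Per the submitters' processing notes, the tools were TopHat2 2.0.6, CASAVA 1.8.2 and edgeR 2.6.0 on hg19, with no role stated. The counting method, annotation and filters were not given in the sources used. Per the file headers, the authors deposited for each gene a p-value, an adjusted p-value, a fold (a ratio) and the log2 of that fold. The adjusted p-values equal a Benjamini-Hochberg adjustment over all rows to within 1.9e-06.

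Group read totals were recovered from the deposited fold by a search up to 5000 reads per line with a relative tolerance of 1e-09 and priors of 0.254868 (LKB1) and 0.245132 (vector). Of 13923 genes with at least 40 reads and reads in both lines, altered constants matched 257 to 299. Unresolved genes, 452 in all, were treated as well read. An implied standard error is the log2 fold divided by the normal quantile of the deposited p, an approximation. Counting intervals are exact (Clopper-Pearson for ratios, Poisson for levels) at 95% and cover counting error only. The alternative test conditions on a gene's total with an assumed negative binomial variation. It was tried on simulated data drawn with that same variation, which cannot show whether the assumption holds for these libraries. Analyses used Python 3.11.15 and scipy 1.17.1.

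Members and lists were chosen with earlier results of these data known. Genes named were the 10 members, STK11, called genes of the list (up to 4 per role) and the gene with most reads per role. Genes said above to be named after their values were seen are exceptions to this. Of the list, ASAH2 was not analysed here. Tests foreseen for single libraries were not run, as the table has none.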

Additional observations from a re-analysis of the deposited data

How the results depend on the processing

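Each of the 10 log2 folds kept its direction when centred on genes with at least 200 reads or taken from reads without a prior count. After subtraction of the median of 24 neighbours, 8 kept it, while CERS5 went to 0.01 and SPTLC1 to -0.039. The same 2 members were called under every other setting tried, except that an assumed variation of 0.2 left 1, CERS4; it left 924 of the 27790 genes with recovered reads called, beside 2007 of 34675 as deposited. Of the other sphingolipid genes, 6 were called as deposited, 2 at an adjusted p under 0.01 (S1PR3 and B4GALNT1) and 4 to 9 under the other settings. The 9 came with p adjusted over genes with at least 40 reads and held 5 of the 6. New there were ST3GAL5, ARSA and NEU1, called higher, and GLTP, called lower. B4GALNT1 fell under that minimum of reads. With 0.2 assumed, B4GALT6 and TECR were lost. The median of the list stayed between 0.10 and 0.14. No library could be left out, since the table holds no value per library. No paired analysis was possible because the columns carry no replicate. Depth limits the precision of SPHK1, of CERS4 and of the genes with fewer than 100 reads in a line.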

Other observations

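CERS1 and GDF1, which overlap on the same strand, had the same totals, 35 reads in the vector line against 17 in the LKB1 line (log2 -1.09, with an adjusted p of 0.338 in the authors' deposited table). The values of CERS1 given above can therefore not be told apart from those of GDF1. Of the 6 other sphingolipid genes called lower, S1PR5 and TECR lie on chromosome 19, like CERS4, in stretches whose 24 nearest genes had median log2 folds of -0.38 and -0.57. Of these neighbours 4 and 16 were called lower. The medians around B4GALT6 on chromosome 18, with 6 called lower, and B4GALNT1 on chromosome 12, with 2, were -0.26 and -0.24. Those around SGPP2 on chromosome 2, with 2 called lower, and S1PR3 on chromosome 9, with 1, were -0.01 and 0.09.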
